A study of Mus musculus and Homo sapiens with 22 samples.

Results

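Lin28A binding and RNA structure were described for the mRNAs of 7 glycolytic enzymes, Gpi1, Aldoa, Gapdh, Pgk1, Eno1, Pkm and Ldha. The genes were named by symbol, and a Lin28A site was counted for a gene when it overlapped the gene's RefSeq bounds on the GRCm38.p6 assembly, the mm10 build of the lists, by at least 1 nt on the gene's strand. They are 7 of 17492 protein-coding genes for which a strand was known, and they held 39 of 10990 sites in Mettl3 wild-type (WT) cells and 29 of 11285 sites in Mettl3 knockout (KO) cells. For Gapdh, RNA structure was also read, from the transcript ENST00000229239 in human and ENSMUST00000118875 in mouse.

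The sites came from irCLIP, in which RNA is crosslinked to protein by ultraviolet light and recovered with an antibody, here against Lin28A, in mouse embryonic stem (mES) cells that were WT or KO for Mettl3. The structure came from icSHAPE, in which the reagent NAI-N3 marks flexible nucleotides, in chromatin, nucleoplasm and cytoplasm of V6.5 mES cells and of HEK293 cells, a line derived from human embryonic kidney. For in vivo probing the reagent was given to living cells before fractionation, and for in vitro probing it was given to RNA that had been extracted from the fractions, denatured and refolded. Each of the 14 groups with a file (2 site lists and 12 icSHAPE files) held 1 sample, so values are set side by side without a test, and each interval covers counting error only. The sources used here do not give the KO allele or the number of KO clones. Both irCLIP groups were grown with LIF on gelatin. Of 10 mES marker genes, 9 held a Lin28A site (43 WT and 58 KO sites), and none of 8 fibroblast or 5 extraembryonic endoderm markers did. Among all protein-coding genes, 15.2% held a WT site and 16.2% a KO site. A lack of sites on a few markers thus does not show that such cells were absent. A site list shows where Lin28A was found and does not measure how much of an mRNA was present.

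Glycolysis turns glucose into pyruvate and yields ATP and NADH without oxygen, and lactate dehydrogenase then turns pyruvate into lactate and restores NAD+. Pluripotent stem cells rely strongly on this pathway. Lin28A is an RNA-binding protein of early embryonic cells that blocks maturation of let-7 microRNAs and also binds many mRNAs, and Mettl3 is the catalytic subunit of the complex that writes N6-methyladenosine on mRNA.

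For Pkm and Aldoa, sites of both lists lay at a RefSeq transcript start (for Aldoa an internal one), and the start-proximal sequences are shown because a Lin28A site covered them in both cell types. Each runs 5′ to 3′ on the gene's strand over bases 21 to 50 after a RefSeq start (GRCm38.p6), and capitals mark the bases that lie inside a site of both lists, 22 of 30 for Aldoa and 25 of 30 for Pkm.
Aldoa, chr7:126799129-126799158, minus strand: gttctcttGGAACGCGCAGCAGAACGAGGT
Pkm, chr9:59656596-59656625, plus strand: cacttGACTGACGTCCGCTCTAGGTATCGC
Neither stretch holds GGAG, the tetramer that Lin28 binds in let-7 precursors, or CTCC, which is GGAG on the other strand. Among all 32851 RefSeq start windows of the same 30 bases, 22.3% held GGAG and 17.3% held CTCC. The sequences of the other sites were not analysed here.

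The comparison of the site lists asked where Lin28A sat on these mRNAs with and without Mettl3. Aldoa, Pkm and Ldha carried most of the sites, 29 of 39 in WT (74.4%) and 24 of 29 in KO (82.8%). Gpi1, Eno1 and Gapdh carried few, and Pgk1 carried none. In all, 6 of the 7 genes held a site in both lists, where 13% of protein-coding genes did (15.2% in WT and 16.2% in KO). A protein-coding gene with any site had a median of 1 site in either list. At least 7 WT sites were listed for 1.21% of protein-coding genes and at least 11 for 0.589%. The Ldha count of 7 and the Aldoa and Pkm counts of 11 reach those levels. The members were chosen with earlier results of these data known, so these shares are descriptions. The background takes in protein-coding genes whatever their mRNA level, which was not measured here.

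**Figure D1:**
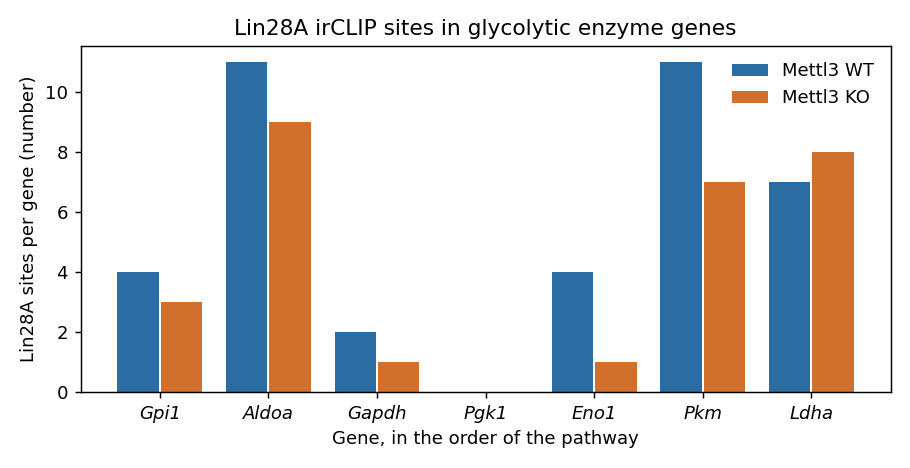
Number of Lin28A irCLIP sites (vertical axis) on each glycolytic enzyme gene (horizontal axis, in pathway order) in the Mettl3 WT list (blue) and the Mettl3 KO list (orange), with 1 sample in each group. Aldoa and Pkm hold 11 WT sites each, and Pgk1 holds none in either list.

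Fewer sites were listed in KO than in WT for 5 of the members with a site (Gpi1, Aldoa, Gapdh, Eno1 and Pkm), and more for 1 (Ldha). Among the 3208 protein-coding genes with a site in either list, 26% had fewer KO sites, 32.9% had more and 41.1% had as many. The KO list held 42.6% of the members' 68 sites, with an exact (Clopper-Pearson) 95% binomial interval of 30.7 to 55.2%. It held 50.7% of all sites, and that value lies inside the members' interval. The interval treats sites as independent, although many places were in both lists and most sites lay in Aldoa, Pkm and Ldha. It therefore cannot decide whether the members' site number differed, and this was not tested.

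Of the members' 42 places, 26 were in both lists. Of the 39 WT sites, 26 (66.7%, interval 49.8 to 80.9%) overlapped a KO site, against 75.1% of all WT sites. Of the 29 KO sites, 26 (89.7%, interval 72.6 to 97.8%) overlapped a WT site, against 72.9% of all KO sites. Each interval holds the share of all sites of its list, the KO interval near its lower end. That left 13 places listed in WT only and 3 listed in KO only. The WT-only sites had low scores in the authors' scale, from 13 to 30 with a median of 15, where the members' shared sites had a median WT score of 26.25. The same held for the WT list as a whole, with medians of 15 for unshared and 24 for shared sites. The KO-only sites scored 17 at most. Sites under 13 in WT and 12 in KO are not listed, so a place listed once may lie below the minimum of the other list.

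**Figure D2:**
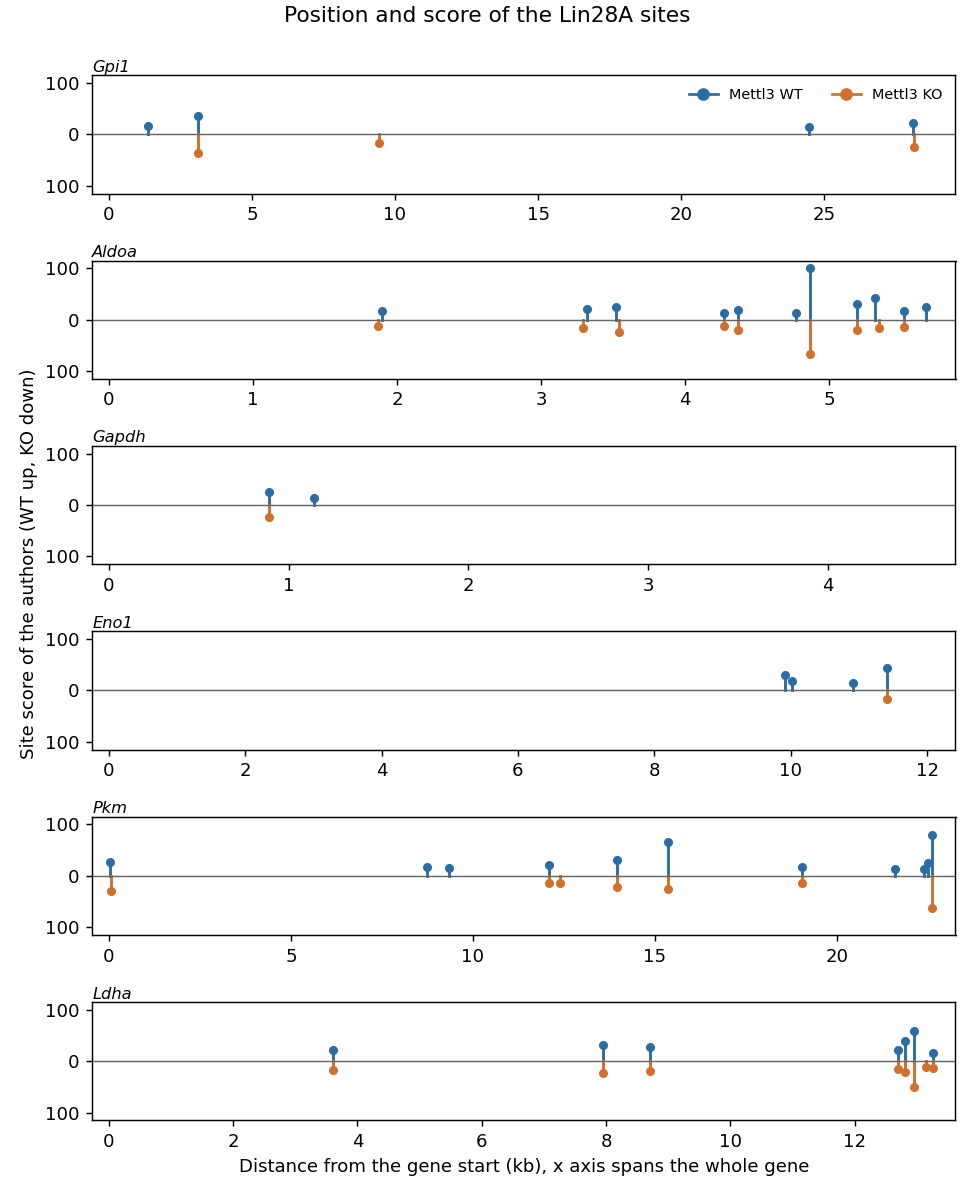
Each stem is 1 Lin28A site, placed by the distance of its centre from the gene start in kb (horizontal axis, which spans the whole gene) with its score in the authors' scale as height, WT upward and KO downward; lists are not on a common scale, so heights are to be read within a list. The highest site of each of the 6 genes lies at the same place in WT and in KO.

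Gpi1, which codes for glucose phosphate isomerase, the enzyme that turns glucose phosphate into fructose phosphate, spans chr7:34201327-34230336 on the minus strand. Its WT sites scored 36.5, 23, 16 and 14, and its KO sites scored 36, 23.5 and 17. The 2 highest sites of each list were shared. The highest lay 3.14 kb after the gene start, and the other shared site lay close to the gene's end, at 96.9% of its length in WT. The single KO-only site, 9.46 kb after the start, scored 17.

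Aldoa, aldolase A, which splits fructose bisphosphate into a pair of triose phosphates, was the most densely covered member (chr7:126795234-126800994, minus strand). It held 1.91 sites per kb in WT and 1.56 in KO. Its 11 WT sites scored from 14 to 101 with a median of 22, and its 9 KO sites from 12 to 67 with a median of 16.5. All 9 KO sites overlapped a WT site, and the WT-only sites scored 25 and 14. The strongest site of any member was at chr7:126796101-126796150, 893 nt before the gene's end, with a score of 101 in WT and 67 in KO. It ranked above 94.9% of the WT list and 91.9% of the KO list. The site shown above by its sequence began 28 nt after an internal RefSeq start, 1.89 kb after the gene start in WT, and scored low, 17 in WT and 13 in KO.

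Gapdh codes for the dehydrogenase that makes the NADH of the pathway (chr6:125161852-125166467, minus strand), and it held few sites. The shared site at chr6:125165551-125165600 scored 26 in WT and 23 in KO and began 173 nt after the RefSeq start that lies inside the gene bounds. The WT-only site at chr6:125165301-125165350 scored 14. Both lie toward the 5′ end, at 19.3% and 24.7% of the gene's length. Pgk1, phosphoglycerate kinase, the enzyme of the first ATP-yielding step (chrX:106187100-106203699, plus strand), had no listed site on either strand in either list.

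Eno1, enolase, which makes phosphoenolpyruvate, showed the fewest KO sites against its WT sites (chr4:150236708-150248879, plus strand). Its WT sites scored 44, 30, 19 and 15, and its single KO site scored 16. The KO site lay at the place of the highest WT site, chr4:150248101-150248150. The other WT sites, at chr4:150246601-150246650, chr4:150246701-150246750 and chr4:150247601-150247650, had no listed KO counterpart, although the first scored 30. With 5 sites in all, the KO share of 20% had an interval from 0.505 to 71.6%. A further site lay on the opposite strand near the gene's 5′ end, at chr4:150237151-150237200, and was listed in both, with a score of 32 in WT and 38 in KO. It was not counted for Eno1. Eno1 has a near-identical copy in the mouse genome, and Gapdh has many processed pseudogenes. The sources used here do not say how reads shared by copies of any member were placed. How this bears on the low counts, those of Gapdh and Pgk1 included, was not tested.

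Pkm, pyruvate kinase, catalyses the last ATP-yielding step and is known for its alternative M1 and M2 forms (chr9:59656576-59679372, plus strand). Its 11 WT sites scored from 13 to 80 and its 7 KO sites from 13 to 63, both with a median of 22. The highest site of both lists, at chr9:59679151-59679200, lay 198 nt before the gene's end and scored 80 in WT and 63 in KO. The next highest WT site, at chr9:59671901-59671950, scored 65, and the KO site at that place scored 26. That WT site ranked above 91.0% of its list and the KO site above 68.2% of its own. The KO site thus ranked lower within its list, and this was not particular to Pkm. The highest Eno1 site ranked above 83.9% of the list in WT and 34.3% in KO. An Aldoa site that scored 43 in WT and 16 in KO ranked above 83.4% and 34.3%. Ranks also rose at shared sites, as at the Pkm 5′ end (66.1% in WT, 74.6% in KO). Without replicates, whether binding at any of these places differed between the cell types was not tested. Of the 5 WT-only Pkm sites, 3 lay in the last 10% of the gene next to the highest site, with scores of 14, 13 and 25. The site at the 5′ end scored 26.5 in WT and 30 in KO.

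Ldha, the lactate dehydrogenase subunit common in proliferating cells, was the member with more KO than WT sites (chr7:46842274-46855627, plus strand). All 7 WT sites overlapped a KO site. The WT scores ran from 15 to 59 with a median of 27, and the 8 KO scores from 12 to 51 with a median of 18.5. The KO-only site scored 12, the lowest score that the KO list holds. The highest site of both, at chr7:46855201-46855250, lay 403 nt before the gene's end and scored 59 in WT and 51 in KO. Around it, 4 WT and 5 KO sites lay in the last 10% of the gene. A shared site began 47 nt after an internal RefSeq start and scored 22 in WT and 17 in KO.

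Across the members, the highest WT site overlapped the highest KO site in 6 of 6 genes. This was so for 82.3% of all protein-coding genes with a site in both lists. It was so for 72.1% of those with at least 2 sites in each. Of the members, Gpi1, Aldoa, Pkm and Ldha held at least 2 sites in each list, and each had this overlap. Sites fell in the last 10% of the gene bounds in 14 of 39 WT cases (35.9%) and in 11 of 29 KO cases (37.9%), near the 29.6% and 31.2% of all sites on protein-coding genes. Sites that began within 250 nt of a RefSeq start numbered 4 in each list, 1 each in Aldoa, Gapdh, Pkm and Ldha. Their shares were 10.3% in WT and 13.8% in KO, beside 7.6% and 6.35% of all sites on protein-coding genes. Scores were ordinary for the lists, with a member median of 22 in WT and 20 in KO beside list medians of 20 and 19. A score of at least 50 was reached by 4 member sites in WT (2 in Pkm, 1 each in Aldoa and Ldha) and by 3 in KO. These are 10.3% of member sites in either list, beside 13.4% of all WT and 12.2% of all KO sites. The gene bounds used here carry no exons, so whether a site lies in an exon, intron or untranslated region was not analysed here.

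Other genes of the pathway held a site about as often as protein-coding genes at large. Of 20 further glycolysis and fermentation genes, 18 had a known strand, and 3 of these (16.7%) held a WT site and 4 (22.2%) a KO site, beside 15.2% and 16.2% of protein-coding genes. Hexokinase Hk2, which traps glucose in the cell, held 2 sites in each list. The phosphofructokinase Pfkl and the triose isomerase Tpi1 held 1 in each list, and Pfkp held 1 in KO only. The genes with no site included Hk1, Pfkm, Pgam1, Eno2, Eno3, Aldoc and Ldhb. Of 4 matched transport genes, 2 held sites. The glucose transporter Slc2a1 held 5 WT and 3 KO sites, and the lactate and pyruvate transporter Slc16a1 held 10 in each.

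In downstream and side routes a larger share of genes held a site than the same 15.2% and 16.2% of protein-coding genes. The further glycolysis list above leaves out the members, so its share is not that of the whole pathway. It is therefore not a like measure to set beside these routes. In pyruvate entry and the citrate cycle, 14 of 24 matched genes (58.3%) held a WT site and 15 (62.5%) a KO site, 27 and 25 sites in all. Pdha1, a subunit of pyruvate dehydrogenase, held 5 WT and 3 KO sites, and Sdha, a subunit of succinate dehydrogenase, held 4 in each. In the pentose phosphate pathway 4 of 7 genes (57.1%) held 7 sites in each list, with 3 of them on transketolase Tkt in each. Of 7 matched regulators of glycolysis, Hif1a and Tigar held 1 WT site each and none held a KO site.

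Beside other mRNAs of abundant housekeeping proteins, the members' KO share was the lowest of 3 groups, with overlapping intervals. The CCT chaperonin genes held 95 WT and 92 KO sites over 7 matched genes, a KO share of 49.2% (41.8 to 56.6%). The translation elongation factor genes held 39 sites in each list over 3 matched genes, a KO share of 50% (38.5 to 61.5%), of which Eef2 held 23 and 22. By the number of sites and the highest score in each list, the genes most like Aldoa were Slc16a1, Ywhae and Rrn3. Slc16a1 held 10 sites in each list, with highest scores of 97 in WT and 71 in KO. Ywhae held 10 and 9 sites (85.3 and 78.5), and Rrn3 held 11 in each (93 and 78).

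RNA structure could be followed for Gapdh, which was listed in 11 of 12 icSHAPE files and was absent from the mES chromatin in vitro file. Its deposited abundance signal, of unstated unit and scaled per file in a way the sources used here do not describe, was highest in cytoplasm in each set and lowest in chromatin where it was listed there. In HEK293 in vivo it was 83.0 in cytoplasm, 26.3 in nucleoplasm and 8.66 in chromatin, and in vitro it was 104, 25.6 and 6.19. In mES cells in vivo it was 109, 50.1 and 10.2, and in vitro it was 101 in cytoplasm and 34.2 in nucleoplasm. As a log2 ratio with a pseudocount of 1, nucleoplasm against cytoplasm gave -1.62 and -1.98 in HEK293 (in vivo, in vitro) and -1.11 and -1.53 in mES. The median transcript gave -1.61 and -1.17 in HEK293 and -0.56 and -0.88 in mES.

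The chromatin files scored too little of Gapdh to compare, 48 and 47 nt in HEK293 and 60 nt in mES in vivo. In the other files, 1257 nt (nucleoplasm) and 1281 nt (cytoplasm) of the 1875-nt human transcript and 848 and 1248 nt of the 1420-nt mouse transcript carried a score between 0 and 1. The first scored nucleotide of the human transcript was 565, so its 5′ part was unread. The score rises with the reaction of the nucleotide.

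The mean score of human GAPDH was high among transcripts and that of mouse Gapdh was not. In HEK293 nucleoplasm it was 0.267 in vivo and 0.245 in vitro, above 92.1% and 75.3% of transcripts with at least 100 scored nt. In HEK293 cytoplasm it was 0.247 and 0.284, above 87.0% and 95.4%. In mES cells it was 0.178 and 0.156 in nucleoplasm, above 37.7% and 26.7%, and 0.206 and 0.159 in cytoplasm, above 52.0% and 30.4%. Species, cell line, rRNA removal kit and sequencer model all differed between these sets, per the labels' protocols, and cannot be told apart.

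**Figure D3:**
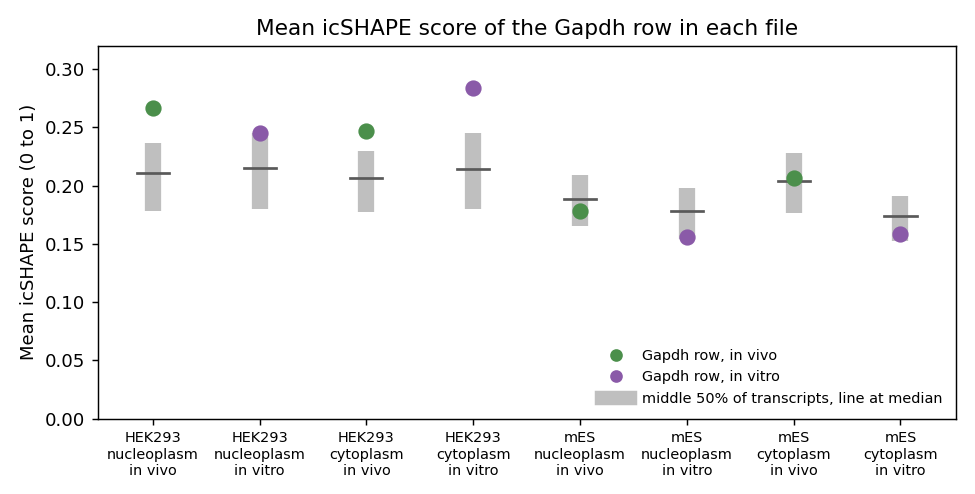
Mean icSHAPE score of the Gapdh transcript (vertical axis, 0 to 1) in each nucleoplasm and cytoplasm file (horizontal axis), in vivo in green and in vitro in purple; grey bars span the middle 50% of transcripts with at least 100 scored nt, with a line at their median. The HEK293 points sit above the upper edge of the bar (just above it in nucleoplasm in vitro), and the mES points sit within it.

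In vivo and in vitro files were compared to see how the mRNA in the cell differed from the same RNA refolded. Over nucleotides scored in both files, Gapdh was more reactive in vivo in 3 of 4 pairs. The in vivo minus in vitro difference was 0.0211 in HEK293 nucleoplasm, 0.0224 in mES nucleoplasm and 0.0477 in mES cytoplasm, and -0.0366 in HEK293 cytoplasm. The HEK293 nucleoplasm value was 0.0309 on odd and 0.0113 on even nucleotides. The share of all transcripts with the higher mean in vivo was 37.6% in HEK293 nucleoplasm, 28.5% in HEK293 cytoplasm, 64.7% in mES nucleoplasm and 87.2% in mES cytoplasm. Gapdh thus had the sign of most transcripts in each pair but HEK293 nucleoplasm, where the median difference was -0.01 and Gapdh ranked above 77.6% of transcripts. On ranks within the file, the cytoplasm differences were within 1 percentile point of 0 in both cell lines, at -0.258 in HEK293 and 0.416 in mES. The profiles of the pairs resembled each other, with Pearson's r across nucleotides of 0.709 and 0.632 in HEK293 nucleoplasm and cytoplasm and 0.672 and 0.683 in mES. Nucleotides of 1 transcript are not independent and share the library, so these r are descriptions.

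Between compartments the difference had opposite signs by cell line and by probing. Nucleoplasm minus cytoplasm was 0.0195 in vivo and -0.0403 in vitro in HEK293, and -0.0235 in vivo and 0.0163 in vitro in mES. The last of these turned to -0.0026 when all nucleotides scored in each file were used, and it also turned on ranks. The nucleoplasm mean was the higher for 59.1% and 44.5% of transcripts in HEK293 and for 29.4% and 66.2% in mES, so Gapdh had the sign of most transcripts in each of the 4 pairs. The Gapdh profiles of the compartments were close, with r of 0.760 in vivo and 0.856 in vitro in HEK293 and 0.848 and 0.795 in mES. The r of 0.856 was above that of 95.5% of transcripts.

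The human and the mouse profile resembled each other at 1 alignment. With no sequence used, the human profile was slid along the mouse profile, and the highest r in all 4 file pairs fell at the same offset of 433 nt. There r was 0.287 and 0.332 in vivo and 0.296 and 0.253 in vitro (nucleoplasm and cytoplasm, 848 and 1248 nt). At the neighbouring offsets of 432 and 434 nt r was between 0.120 and 0.248. Leaving those out, the next highest r at an offset sharing at least 500 nt was between 0.138 and 0.192. The offset was chosen by its r, so these values are a description.

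**Figure D4:**
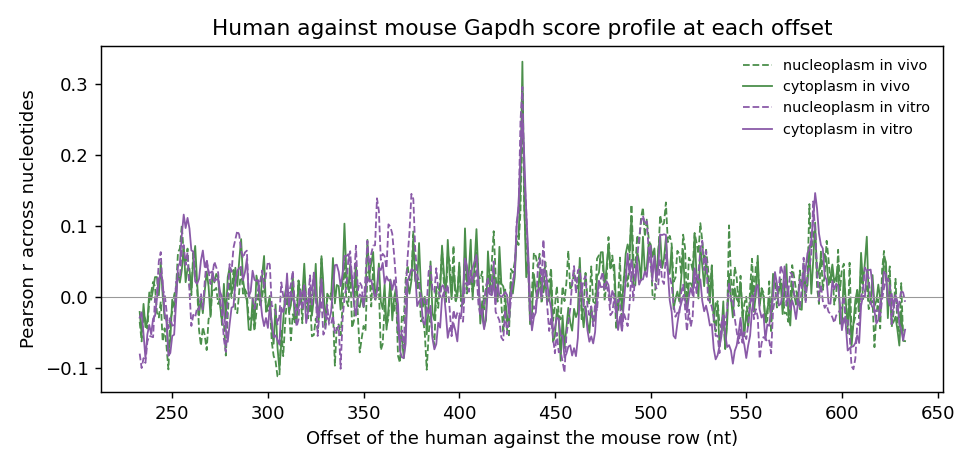
Pearson's r between the human and the mouse Gapdh score profile (vertical axis) at offsets in nt of the human against the mouse transcript around the highest value (horizontal axis), for nucleoplasm (dashed) and cytoplasm (solid) in vivo (green) and in vitro (purple). A single peak at 433 nt stands out in all 4 curves.

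Gapdh scores repeated every 3 nt. The power at a period of 3 nt over the mean power at 24 neighbouring frequencies was above 5 in 8 of 8 files. Among transcripts with at least 500 scored nt, 32.6% and 29.8% passed that level in HEK293 nucleoplasm and cytoplasm in vivo, 13.1% and 5.1% in vitro. In mES the shares were 31.1% and 29% in vivo and 21% and 22.9% in vitro. The Gapdh ratio in HEK293 was 14.0 and 21.2 in vivo and 11 and 6.29 in vitro, and in mES 8.34 and 12.9 in vivo and 7.48 and 15.9 in vitro. On ranks along the transcript the HEK293 ratios were lower, 5.64 and 10.7 in vivo and 2.21 and 3.30 in vitro, so that 6 of 8 files stayed above 5.

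The triplet positions were then read along the transcript. Several other mES transcripts of 1002 nt had a profile similar to that of Gapdh from its nucleotide 241 on. Their r was from 0.715 to 0.778 in cytoplasm in vivo. The stretch they cover, 241 to 1242 in mouse and 674 to 1675 in human at the 433-nt offset, was taken after its values were seen. Its length is a multiple of the codon length, and reading frames of these transcripts are not given in the files. Within it the third position of each triplet, counted from the stretch's first nucleotide, had the highest mean score in 8 of 8 files. The human stretch was placed by the offset with the highest r between profiles that both repeat every 3 nt. That choice favours a shared phase, so the HEK293 result is not independent of the mES result. In cytoplasm in vivo the means of positions 1, 2 and 3 for HEK293 were 0.168, 0.213 and 0.303, and those for mES were 0.152, 0.188 and 0.265. The excess of position 3 over the mean of the others ran from 0.0300 (HEK293 cytoplasm in vitro) to 0.114 (mES nucleoplasm in vivo). The mES nucleoplasm files scored 626 nt of the stretch, and the other files scored all 1002. After the stretch that excess was between -0.0637 and 0.0219, and position 1 was the highest in 4 of 4 mES files. Before it, over 74 to 109 scored nt, the excess was between -0.0513 and 0.0365, and position 3 was the highest in 1 file, mES cytoplasm in vivo. The period ratio was not computed outside the stretch.

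**Figure D5:**
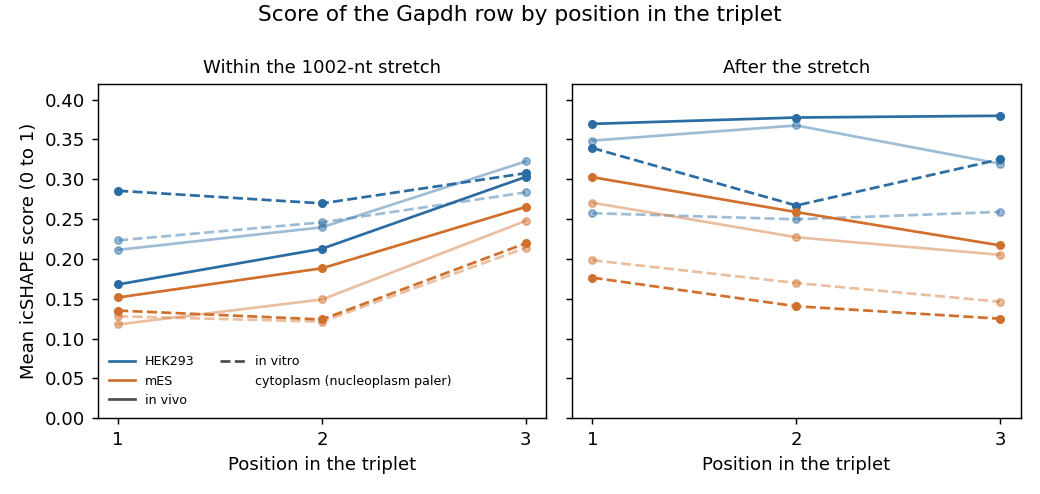
Mean icSHAPE score (vertical axis) at positions 1, 2 and 3 of the triplet (horizontal axis) within the 1002-nt stretch (left) and after it (right), for HEK293 (blue) and mES (orange), in vivo (solid) and in vitro (dashed), cytoplasm in full and nucleoplasm in pale colour. Position 3 is the highest in 8 of 8 files on the left, where the HEK293 stretch was placed by the best offset against mES. On the right, position 1 is the highest in 4 of 4 mES files. For HEK293 on the right, position 3 is slightly the highest in cytoplasm in vivo and in nucleoplasm in vitro.

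The 3′ part after the stretch reacted more than the stretch itself in the in vivo files. In HEK293 in vivo its mean was 0.345 in nucleoplasm and 0.376 in cytoplasm, against 0.258 and 0.228 within the stretch. In mES in vivo it was 0.235 and 0.260 against 0.172 and 0.202. In vitro the means lay closer together. In nucleoplasm they were 0.255 against 0.251 for HEK293 and 0.172 against 0.154 for mES, and in cytoplasm 0.310 against 0.288 and 0.148 against 0.160. The part after the stretch held 170 scored nt in HEK293 and 148 in mES.

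Other transcripts had a profile like that of Gapdh in cytoplasm in vivo, and the other files were not searched. At r of at least 0.7 over at least 300 nt, 15 of 7244 mES transcripts matched it in cytoplasm in vivo. Of these, 11 matched at the same offset of 240 nt, 8 of them 1002 nt long, with abundance signals over all 15 from 31.1 to 146 beside 109 for Gapdh. In HEK293 cytoplasm in vivo, 5 of 2144 matched, with r from 0.814 to 0.822. Gapdh is known for its many processed pseudogenes and its alternative transcripts, and whether reads of such copies enter the Gapdh values was not tested.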

How the data were processed

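The members and gene lists were chosen with earlier results of these data known. The submitters' processing notes name Bowtie2 and UMI-tools, without versions, and the builds hg38 and mm10. The sources used here do not name the site caller or its control. Each site list, as deposited by the authors, gave for each site, in steps of 50 nt, its strand with a p-value and a score. The p-value deposited by the authors differed between lists at the same score (4.60e-06 in WT and 1.89e-06 in KO at a score of 14), so scores were read within a list. Each icSHAPE file, as deposited by the authors, gave an abundance signal and a score from 0 to 1 per nucleotide. Read depth per file is not given; the labels' protocols state the depth of the icSHAPE libraries only roughly.

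Sites were assigned to RefSeq bounds, with strands from the RefSeq start table (17492 of 21900 protein-coding genes). Other genes were named where they were on a pathway list or were nearest to Aldoa in site number and highest score. Means used nucleotides scored in both files, at least 100. Period and offset values needed 500 nt, and offsets used Pearson's r. Shares have exact 95% Clopper-Pearson intervals. The code was tested on simulated data. Python 3.11.15, numpy 2.4.6 and scipy 1.17.1 were used. The 2 anti-GFP controls and 6 DMSO samples were not analysed here. Alternatives varied strand, score minimum, overlap, scale and nucleotides used.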

Additional observations from a re-analysis of the deposited data

Results flagged for a closer look

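In cytoplasm, the Gapdh mean score moved in opposite directions in the cell lines, with an in vivo minus in vitro difference of -0.0366 in HEK293 and 0.0477 in mES. In vivo, the nucleoplasm minus cytoplasm difference was 0.0195 in HEK293 and -0.0235 in mES. In vitro it was -0.0403 in HEK293 and 0.0163 in mES, and the mES value changed sign under 2 other settings given below. With 1 sample in each group these differences between cell lines were not tested, and species, kit and sequencer differed with the cell line.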

How the results depend on the processing

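No paired analysis was possible because each group held 1 sample and no replicate numbers are given. Of the alternatives to values that answer a comparison, 34 were labelled the same and 7 moved. Some of the 34 could not have moved. A score minimum of 10 lies below the lowest score of each list (13 in WT, 12 in KO). Sites lie in steps of 50 nt, so an overlap of at least 25 nt picks the same sites as the main setting. A share was the same when it stayed within the interval of the main value. A count of sites or a median had to stay within a set factor. A count of pairs or files had to be equal. With sites at or above their list's median score only, the members held 24 WT and 15 KO sites. These were 61.5% and 51.7% of the members' sites, beside 52.9% and 50.6% of all sites. Of them, 87.5% and 100% overlapped the other list, beside 93.5% and 92.6% of all such sites. The nucleoplasm mean was higher in 2 of 4 pairs, but in 1 on ranks within the file and in 1 with all nucleotides scored in each file. Both changes came from mES in vitro, at -3.99 percentile points and -0.0026; the cause was not tested. On ranks along the transcript the period of 3 nt passed its level in 6 files; the cause was not tested. Restricting to nucleotides scored in every file of a cell line gave no value (43 nt in HEK293, 60 nt in mES). The settings of sites wholly within the bounds and nucleotides scored in all nucleoplasm and cytoplasm files, were chosen after seeing the data. Few sites per gene and 1 sample per group limit the precision.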

Other observations

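In windows of 50 nt along Gapdh, the in vivo mean was above the in vitro mean in 16 of 25 windows in HEK293 nucleoplasm, 8 of 26 in HEK293 cytoplasm, 11 of 18 in mES nucleoplasm and 20 of 25 in mES cytoplasm. In mES cells the window with the highest in vivo minus in vitro difference was the same in both compartments, nucleotides 1168 to 1217, near the end of the 1002-nt stretch. Its mean was 0.255 in vivo and 0.125 in vitro in nucleoplasm, and 0.307 and 0.0843 in cytoplasm. In HEK293 the window with the highest difference lay after the stretch in both compartments, at 1751 to 1800 in nucleoplasm (0.356 in vivo, 0.249 in vitro) and at 1801 to 1850 in cytoplasm (0.424 and 0.240). In HEK293 cytoplasm the lowest difference was at 1201 to 1250 (0.161 and 0.295), within the stretch. Windows were picked by their values and carry no test.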
